A study of Mus musculus with 6 samples.

Results

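The genes described here are 6 transcription factor genes, Foxc1, Ebf1, Ebf2, Ebf3, Runx1 and Prrx1. The set concerns the identity of Cxcl12-abundant reticular (CAR) cells of the mouse bone marrow. Its members were chosen by name out of 19938 genes with a value on the arrays. Each had a single probe set naming that gene only, and all 6 passed the filter that left 13292 genes for testing. RNA came from CAR cells sorted by flow cytometry from femur and tibia marrow, with 3 arrays of cells targeted by Dmp1-Cre and 3 arrays of cells not targeted by it. All mice were C57BL/6, aged 7 weeks, and both populations carried the Dmp1-Cre transgene and a gfp allele of Cxcl12 beside a wild-type one. Per the series' design text, the cells were sorted from 3 mice and a sample holds the cells of a single mouse. Read literally, the 6 samples then share mice across the populations, and no label says which samples share one, so the main tests below treat the arrays as independent. Dmp1 encodes a bone matrix protein that osteocytes and late osteoblasts make, so the transgene marks a subset of CAR cells with a history of activity of that gene's regulatory sequence. The labels used here do not name the reporter by which targeted cells were recognised.

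CAR cells surround the sinusoids of the marrow and supply Cxcl12 and stem cell factor to blood stem cells and lymphoid precursors. In mouse knockouts, Foxc1 is needed for CAR cells to form and for the marrow to stay free of fat, Ebf3 together with Ebf1 keeps the marrow cavity from filling with bone, and Runx1 together with Runx2 keeps the cells from turning fibrotic. Ebf2 acts in the brown fat and osteoblast lineages of the mouse, and Prrx1 is a homeobox gene of limb bud mesenchyme. Ebf1 and Runx1 also work in blood cells, where Ebf1 directs the B lineage and Runx1 the origin of blood stem cells.

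The sequence before the start of each gene was searched for short motifs that these families are known to bind, since the members are themselves DNA-binding proteins. RefSeq windows of GRCm38.p6, 300 bases long, were found for 5 of the 6 members, 7 windows in all, and Ebf2 had no entry. On both strands, 3 of the 7 windows held TGTGGT, a motif of Runx proteins, against 16.8% of 32851 windows of all genes. The homeodomain motif TAATTA was in 1 of the 7, against 5.29% of all windows. Neither TCCCNNGGGA, a motif of Ebf proteins, nor TGTTTAC, a forkhead motif, was in any of the 7 (0.904% and 3.65% of all windows). A match is a string of letters and not a shown binding site. The 3 members with a match before the start are given below as the 250 bases before it, 5′ to 3′ on the gene's strand, with the matched motif in capitals.
Foxc1, chr13:31806396-31806645, plus strand: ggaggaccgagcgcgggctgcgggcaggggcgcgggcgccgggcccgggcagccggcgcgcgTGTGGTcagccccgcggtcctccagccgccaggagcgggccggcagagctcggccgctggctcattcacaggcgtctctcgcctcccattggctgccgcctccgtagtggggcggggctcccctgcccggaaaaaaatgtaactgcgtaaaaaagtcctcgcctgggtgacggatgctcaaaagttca
Ebf1, chr11:44617850-44618099, plus strand: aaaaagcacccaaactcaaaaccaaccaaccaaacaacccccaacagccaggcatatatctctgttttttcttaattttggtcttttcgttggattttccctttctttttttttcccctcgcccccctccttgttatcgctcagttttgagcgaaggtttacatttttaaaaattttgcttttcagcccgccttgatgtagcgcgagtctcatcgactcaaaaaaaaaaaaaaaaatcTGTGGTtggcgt
Prrx1, chr1:163313651-163313900, minus strand: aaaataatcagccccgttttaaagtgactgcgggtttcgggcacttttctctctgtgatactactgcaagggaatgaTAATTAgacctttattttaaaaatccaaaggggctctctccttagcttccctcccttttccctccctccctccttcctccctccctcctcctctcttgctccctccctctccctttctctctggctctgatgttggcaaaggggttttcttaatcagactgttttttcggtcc
The Runx motif lay 188 bases before the start in Foxc1 and 12 bases before it in Ebf1, and the homeodomain motif lay 173 bases before it in Prrx1. Runx1 held its own family's motif on the opposite strand at 2 places past the start furthest upstream, from base 29 and from base 37 counting the start as base 1, shown here as a stretch of 30 bases around both.
Runx1, chr16:92826025-92826054, minus strand: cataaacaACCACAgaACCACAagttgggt

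The arrays' median intensities ran from 79.4 to 87.5 and their log2 values correlated across genes at 0.91 to 0.96. Dmp1, whose sequence drives the Cre, was at 11.28, 10.03 and 9.89 (log2 intensity) in targeted cells and at 7.51, 6.93 and 6.91 in non-targeted cells, in the order of the labels. Both populations held the defining genes of CAR cells at high intensity. Cxcl12 was at 12.22 to 12.40 in targeted cells and 12.32 to 12.65 in cells not targeted, and Adipoq, also abundant in CAR cells, was at 12.72 to 13.34 in targeted cells and 13.16 to 13.29 in cells not targeted. Targeted replicate 1 stood apart, with neutrophil and myeloid markers at a mean log2 intensity of 6.21 against 8.12 to 9.10 on the other 5 arrays. Several values below are also given without it.

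No member differed between the populations past the threshold, and each one's arrays overlapped between the groups. All 6 means were lower in targeted cells, by 0.03 to 0.38 on the log2 scale, with a median difference of -0.27. That median ran from -0.45 without non-targeted replicate 1 to -0.16 without targeted replicate 3, and was -0.37 without targeted replicate 1. Over all 13292 genes tested the median difference was -0.01 and 51.1% of means were lower. In limma's test 0 of the 6 members passed at an adjusted p under 0.05 (adjusted p = 0.9998 for each), as did 0% of all genes tested. At an unadjusted p under 0.05 limma called 0 of the 6 members and 634 of all genes (4.77%). The groups' arrays did not overlap for 9.07% of all genes. The labels call the arrays biological replicates, and n = 3 per group throughout. In RNA from sorted pools, fewer cells expressing a gene and less of its RNA per cell cannot be told apart.

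**Figure D1:**
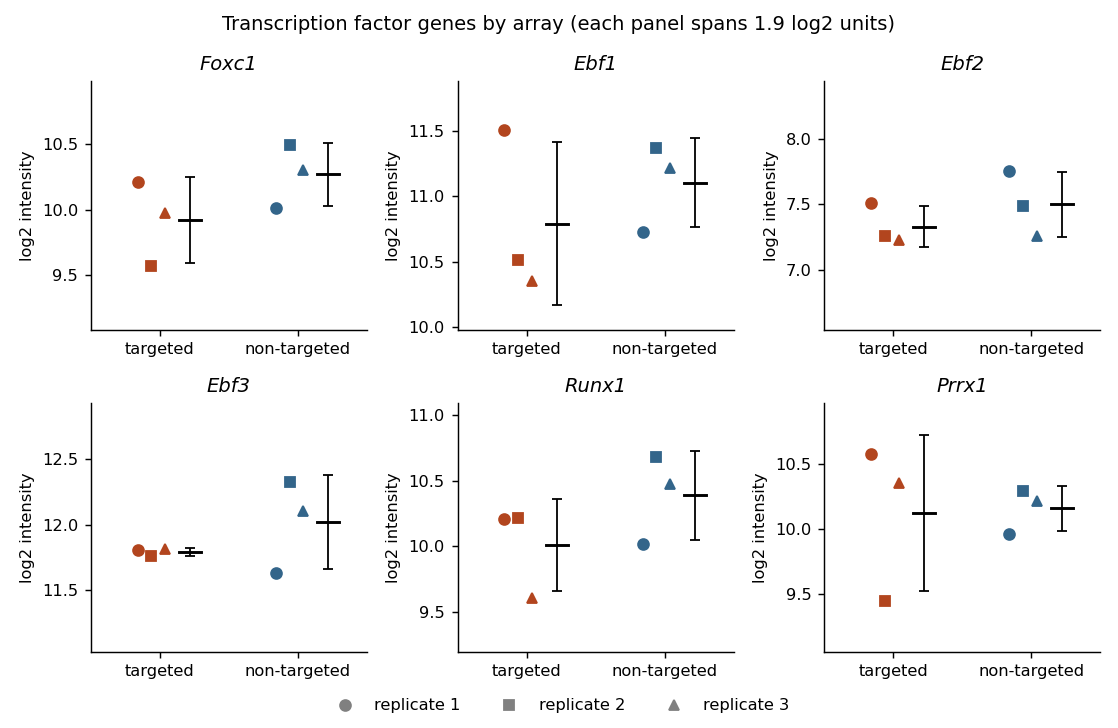
Log2 intensity of the 6 genes on each array, with targeted cells left of non-targeted cells, symbols for replicate numbers, and bars for the mean and SD (n = 3). The groups overlap in every panel, and targeted replicate 2 lies lowest for Foxc1 and Prrx1 while targeted replicate 3 lies lowest for Ebf1, Ebf2 and Runx1.

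Foxc1, the forkhead factor required for CAR cells, was at 10.21, 9.57 and 9.98 in targeted replicates 1 to 3, against 10.01, 10.50 and 10.30 in non-targeted replicates 1 to 3 (log2 intensity). The 2 lowest arrays were targeted and the 2 highest non-targeted, while targeted replicate 1 lay above non-targeted replicate 1. The group means were 9.92 ± 0.33 for targeted cells and 10.27 ± 0.24 for non-targeted cells (SD, n = 3 each), 1.27-fold lower in targeted cells. The log2 difference of -0.35 (SE 0.21, limma 95% interval -0.85 to 0.15, unadjusted p = 0.144) allowed up to a 1.80-fold lower level in targeted cells. Leaving out targeted replicate 2 gave -0.17, and leaving out targeted replicate 1 gave -0.50.

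Ebf1, the early B cell factor that acts with Ebf3 in CAR cells, was at 11.50, 10.51 and 10.35 in targeted cells and at 10.72, 11.37 and 11.22 in non-targeted cells. Targeted replicate 1 was the highest of all 6 arrays, and the other 2 targeted arrays were the lowest. Its targeted SD of 0.62 was the largest of the 6 members in either group. The means of 10.79 ± 0.62 for targeted cells and 11.10 ± 0.34 for non-targeted cells (SD, n = 3 each) differed by -0.31 (SE 0.32, limma 95% interval -1.07 to 0.44, unadjusted p = 0.364). Without targeted replicate 1 the difference was -0.67 (limma, unadjusted p = 0.0219, adjusted p = 0.511), and without targeted replicate 3 it was -0.10. With targeted replicate 1 left out, 8.40% of all genes tested had an unadjusted p under 0.05 in limma. Of the 6 members, Ebf1 moved furthest when a single array was left out.

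Ebf3, whose loss in mice lets bone fill the marrow, was at 11.81, 11.76 and 11.82 in targeted cells and at 11.63, 12.33 and 12.10 in non-targeted cells. The targeted arrays lay within 0.06 of each other, and non-targeted replicate 1 lay below them while the other 2 non-targeted arrays lay above. The means were 11.80 ± 0.03 for targeted and 12.02 ± 0.36 for non-targeted cells (SD, n = 3 each), a log2 difference of -0.23 (SE 0.20, limma 95% interval -0.69 to 0.24, unadjusted p = 0.294). Without non-targeted replicate 1 it was -0.42 (limma, unadjusted p = 0.0420, adjusted p = 0.818), while leaving out non-targeted replicate 2 gave -0.07. With non-targeted replicate 1 left out, 5.97% of all genes tested had an unadjusted p under 0.05 in limma.

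Ebf2, the family member known from brown fat and osteoblast precursors, gave the lowest signal of its own probe set in targeted replicate 3. It was at 7.51, 7.26 and 7.23 in targeted cells and at 7.76, 7.49 and 7.26 in non-targeted cells. Targeted replicate 1 lay between the 2 highest non-targeted arrays, and non-targeted replicate 3 lay just above the other 2 targeted arrays. The log2 difference was -0.17 (SE 0.18, limma 95% interval -0.59 to 0.25, unadjusted p = 0.371), and leaving out an array moved it to -0.04 (non-targeted replicate 1) or -0.29 (non-targeted replicate 3). Ebf2 was far dimmer than the other members, whose lowest value was 9.45 (Prrx1, targeted replicate 2).

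Runx1, the runt factor shared by marrow stroma and blood stem cells, had the most negative mean difference of the 6. It was at 10.21, 10.22 and 9.61 in targeted cells and at 10.02, 10.68 and 10.47 in non-targeted cells. Non-targeted replicate 1 lay below 2 of the targeted arrays, and the other 2 non-targeted arrays lay above all 3. The means of 10.01 ± 0.35 for targeted cells and 10.39 ± 0.34 for non-targeted cells (SD, n = 3 each) stood 1.30-fold lower in targeted cells. The log2 difference of -0.38 (SE 0.24, limma 95% interval -0.94 to 0.18, unadjusted p = 0.158) became -0.18 when targeted replicate 3 was left out and -0.57 when non-targeted replicate 1 was.

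Prrx1, the homeobox gene of limb mesenchyme, showed the smallest mean difference and no fixed sign. It was at 10.58, 9.45 and 10.35 in targeted cells and at 9.96, 10.29 and 10.21 in non-targeted cells. The targeted arrays enclosed the non-targeted ones, with targeted replicates 1 and 3 as the 2 highest and targeted replicate 2 as the lowest of the 6. The means were 10.12 ± 0.60 for targeted and 10.16 ± 0.17 for non-targeted cells (SD, n = 3 each), a log2 difference of -0.03 (SE 0.29, limma 95% interval -0.71 to 0.64, unadjusted p = 0.912). Without targeted replicate 2 it was 0.31, and under quantile or cyclic loess scaling it also turned positive, at 0.020 and 0.0062.

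**Figure D2:**
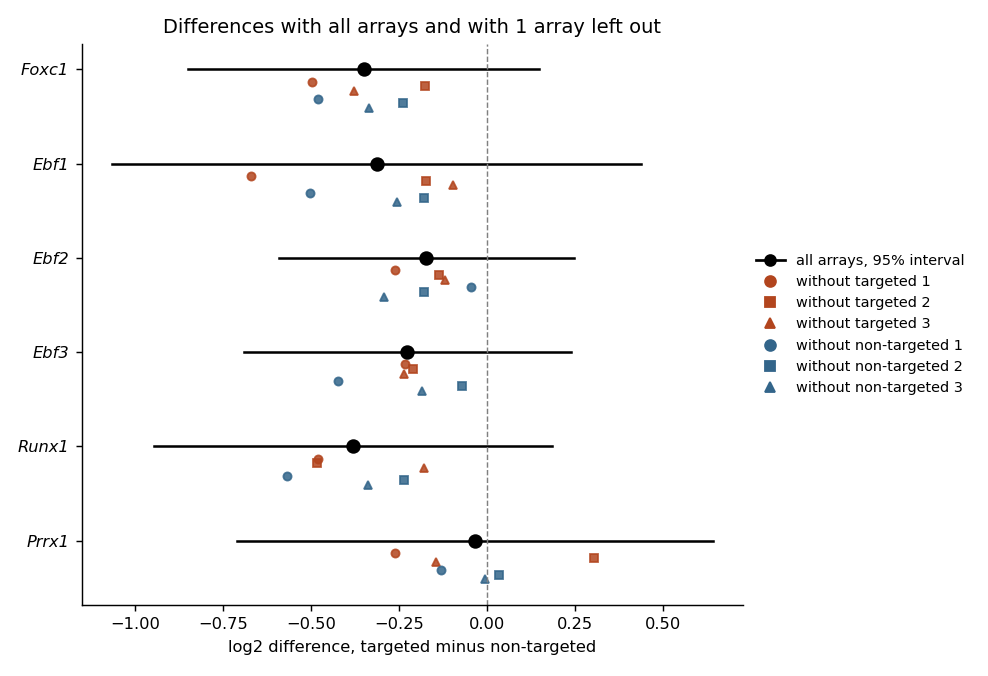
Log2 difference of each gene, targeted minus non-targeted (horizontal axis), as a black point with limma's 95% interval over all 6 arrays, and below it the value with each array left out in turn. Every interval spans 0, and only Prrx1 has values on both sides of 0 when an array is left out, reaching 0.31 without targeted replicate 2.

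The members' differences were read against genes of similar intensity, a range chosen after their levels were seen. Foxc1, Ebf1, Ebf3, Runx1 and Prrx1 had means between 10 and 12 over all arrays, as did 559 genes in all, of which 64.9% were lower in targeted cells. The median difference of those 559 genes was -0.08, with quartiles at -0.26 and 0.08. Foxc1, Ebf1 and Runx1 lay below the lower quartile, while Ebf3 and Prrx1 lay between the quartiles. Ebf2 was too dim for this range, with means of 7.33 in targeted and 7.50 in non-targeted cells. Over all genes tested, 9.15% had a difference more negative than that of Runx1, 10.5% than Foxc1 and 12.6% than Ebf1. The share was 19.0% for Ebf3, 24.2% for Ebf2 and 44.1% for Prrx1.

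**Figure D3:**
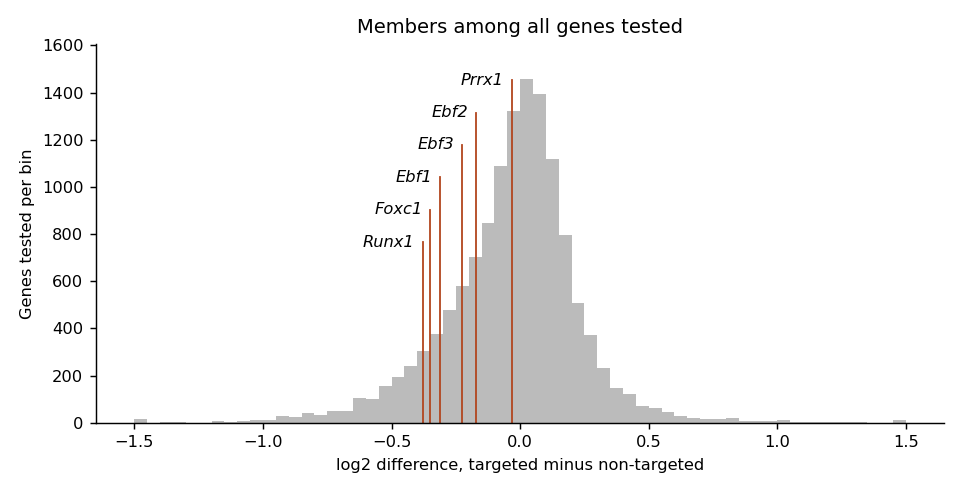
Histogram of the log2 difference, targeted minus non-targeted, over the 13292 genes tested in bins along the horizontal axis, with the 6 genes as vertical lines whose heights carry no value. All 6 lie left of 0, from -0.38 for Runx1 to -0.03 for Prrx1, within the body of the distribution, and the 25 genes beyond 1.5 in size are drawn in the end bins.

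The 6 genes did not share a single pattern over the arrays. Their mean log2 intensity was 10.30, 9.79 and 9.89 in targeted cells and 10.02, 10.44 and 10.26 in non-targeted cells, so targeted replicate 1 lay among the non-targeted arrays and non-targeted replicate 1 below the other 2 of its group. Of the 15 pairs of members, Foxc1 and Ebf1 followed each other most closely over the 6 arrays (Pearson r = 0.79), followed by Foxc1 with Prrx1 (0.76) and Ebf1 with Runx1 (0.75). After each group's mean was taken away, Foxc1 with Prrx1 had the highest r, at 0.92. Ebf2 and Ebf3 had the lowest r, at -0.24, or -0.58 after taking away group means. Over 6 arrays such values do not show an opposed pattern, and both genes had lower means in targeted cells. Non-targeted replicate 1 was the highest of the 6 arrays for Ebf2 and the lowest for Ebf3. These are descriptions over 6 arrays that share an array platform and a joint normalisation.

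The genes most like each member over the 6 arrays, among 12307 protein-coding genes, were likewise taken as a description. For Foxc1 they were Git2, St3gal6 and Tatdn3 (r = 0.98 each). For Ebf1 they were Ampd3, Hadhb and Vwa3b (0.99 each), and for Ebf3 Fam120b, Uso1 and Phf8 (0.99 each). Slc30a9 led for Ebf2 (0.99), before Ifi27l2a and Armcx6 (0.97 each). Dync2li1, Sugp1 and Map4k5 led for Runx1 (0.99 each), and Taf1a, Ubap2l and Nucks1 for Prrx1 (0.99 each). With 6 arrays such values are common, and 53 genes for Ebf2 up to 313 genes for Ebf1 had an r over 0.9.

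Among relatives of the members, the means of 3 of 4 measured genes were higher in targeted cells and 1 was lower, and 0 passed limma's adjusted threshold. Runx3, the runt gene of lymphocytes and chondrocytes, was at 9.80, 9.22 and 9.16 in targeted cells and at 9.15, 9.12 and 8.83 in non-targeted cells. All 3 targeted arrays lay above all 3 non-targeted ones, by a narrow margin (3.32% of all genes tested lay apart in that direction). Its log2 difference of 0.37 (SE 0.21, limma unadjusted p = 0.123, adjusted p = 0.9998) had the sign opposite to that of Runx1, and the difference between both genes was not tested. Without targeted replicate 1 the Runx3 difference was 0.16 (limma, unadjusted p = 0.371). Foxc2, the forkhead gene of lymphatic vessels and fat, was at 8.45 in targeted cells and 8.23 in cells not targeted on average, Prrx2 at 6.73 in targeted cells and 6.70 in cells not targeted, and Ebf4 at 6.33 in targeted cells and 6.55 in cells not targeted, all with overlapping arrays. The Ebf4 difference of -0.22 was -0.09 without targeted replicate 1. That of Prrx2 turned negative without targeted replicate 2 (-0.03) or 3 (-0.07), and without non-targeted replicate 2 (-0.02). Runx2, the runt factor of osteoblasts, was not analysed here.

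All 7 partners and corepressors on the list had lower means in targeted cells (median log2 difference -0.13, or -0.19 without targeted replicate 1), and 0 of the 7 passed limma's adjusted threshold. Of all genes tested, 41.7% had lower means in the intensity range of Tle4, and 55.4% or 62.1% in the ranges of the other partners. Tle4, a Groucho corepressor that Runx proteins can recruit, was at 5.87, 6.04 and 5.98 in targeted cells and at 6.30, 6.91 and 6.82 in non-targeted cells. The groups did not overlap, as for 5.76% of all genes in that direction, and the log2 difference was -0.71 (SE 0.19, limma unadjusted p = 0.00690, adjusted p = 0.824). The Tle4 mean of 5.97 in targeted cells was itself below the log2 intensity of 6.00 at which genes counted as dim, so the gene was tested only because of its mean of 6.68 in non-targeted cells. The difference was measured against dim values. Zfp423, a zinc finger protein that binds Ebf proteins, was at 9.24, 9.14 and 9.16 in targeted cells and at 9.42, 9.27 and 9.32 in non-targeted cells, also without overlap, with a log2 difference of -0.16 (SE 0.14, limma unadjusted p = 0.286). Zfp521, which binds Ebf1 and holds it back, differed by -0.24 and Cbfb, the partner that stabilises Runx proteins on DNA, by -0.13, both with overlapping arrays. Without targeted replicate 1 these were -0.46 for Zfp521 and -0.01 for Cbfb. Tle1, Tle2 and Tle3 differed by -0.10 to -0.07 and overlapped. Leaving out targeted replicate 3 or non-targeted replicate 2 left 5 of the 7 lower.

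**Figure D4:**
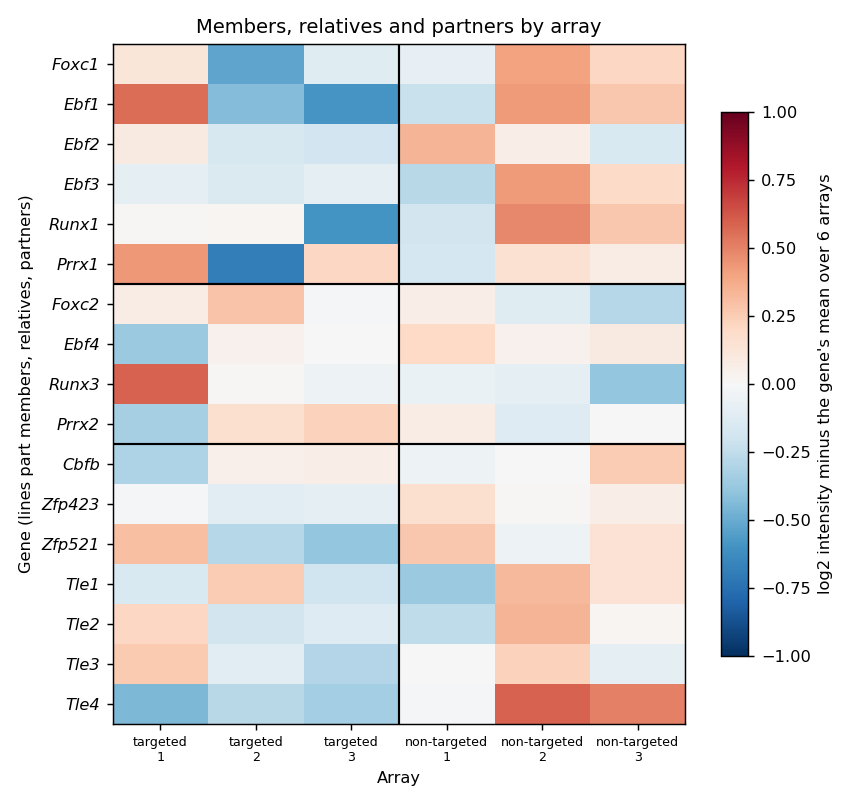
Log2 intensity minus each gene's mean over the 6 arrays (colour, red higher and blue lower), for the 6 members, 4 relatives and 7 partners and corepressors in rows and the arrays in columns, targeted cells at the left. Tle4 is lower on all 3 targeted arrays than on the others, Runx3 is highest on targeted replicate 1, and the members' rows change from array to array within a group.

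Other transcription factors of mesenchyme split more evenly. Of 12 listed, 9 were tested, with 4 means higher and 5 lower in targeted cells (median log2 difference -0.04) and 0 past limma's adjusted threshold. Twist2, a helix-loop-helix factor of mesenchyme, was at 7.34, 7.63 and 7.56 in targeted cells and at 7.76, 7.87 and 7.82 in non-targeted cells. Its groups did not overlap, as for 5.76% of all genes in that direction, and the difference of -0.30 had an adjusted p of 0.9998 in limma. Snai2, a zinc finger factor of mesenchymal cells, averaged 11.30 in targeted and 11.62 in non-targeted cells with overlapping arrays. Its difference of -0.33 was -0.58 without targeted replicate 1. Twist1 averaged 8.81 in targeted and 8.65 in non-targeted cells, and Zeb1 averaged 6.48 in targeted and 6.24 in non-targeted cells, both overlapping. The higher Zeb1 mean rested on targeted replicate 1, at 7.08 against 6.08 and 6.27 on targeted replicates 2 and 3. Its difference was -0.06 when that array was left out.

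Genes by which CAR cells support blood formation, or by which they are recognised, were lower by their means as well. All 9 niche genes listed had negative log2 differences, with a median of -0.25, and 0 of the 9 passed limma's adjusted threshold. Without targeted replicate 1 the median was -0.43 with all 9 still negative, and without targeted replicate 2 it was -0.18 with 8 of the 9 negative. In the intensity ranges where these genes lay, 60.2% to 63.8% of all genes tested had lower means in targeted cells. Kitl, the stem cell factor gene, was at 10.99, 10.42 and 10.78 in targeted cells and at 10.91, 11.27 and 11.01 in non-targeted cells. Its order over the arrays resembled that of Foxc1, with targeted replicate 2 lowest and non-targeted replicate 2 highest for both. Lepr, the leptin receptor gene, was at 12.02, 11.67 and 11.70 in targeted cells and at 12.29, 12.29 and 12.28 in non-targeted cells, without overlap (limma, adjusted p = 0.947). Il7, a cytokine of lymphoid precursors, was the only other niche gene whose groups did not overlap, with means of 8.71 in targeted and 9.73 in non-targeted cells (limma, adjusted p = 0.758). Over all genes tested, 5.76% were lower in targeted cells without overlap. None of the 7 RefSeq windows found for these niche genes held any of the 4 motifs. The Runx motif was not particular to the members, being in 2 of 5 windows of their relatives and 4 of 11 of osteogenic genes. It was in 1 of 14 windows of the other mesenchymal factors, and in 0 of 8 windows each of the partners and of fibrosis genes.

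Listed genes of bone and of fibrosis were mostly higher by their means in targeted cells. No list of fat cell genes was compared. Of 7 osteogenic genes tested, 6 had higher means, and 4 of those 7, among them Dmp1 itself, had no overlap between groups (3.32% of all genes tested were higher without overlap). Dmp1 is not independent of the sort, since Cre from its regulatory sequence defined the targeted cells, yet it enters all counts and medians of this list. With array weights, or with any array but non-targeted replicate 3 left out, 5 of the 7 were higher. The log2 differences of Ibsp and Sost were near 0, at 0.05 (SE 0.19) and 0.04 (SE 0.20), and that of Phex was -0.22. Sp7, the osteoblast factor, was at 8.63, 8.56 and 8.64 in targeted cells and at 8.01, 8.50 and 8.22 in non-targeted cells. All 3 targeted arrays lay above, and the difference of 0.37 had an adjusted p of 0.9998 in limma. Of 10 genes of fibrosis, 8 had higher means, with a median log2 difference of 0.13. Timp1, an inhibitor of matrix proteases, was at 8.63, 7.87 and 7.18 in targeted cells and at 6.45, 7.03 and 7.16 in non-targeted cells. Targeted replicate 1 was highest for it, and also for Col1a2, at 11.02 against 9.66 to 9.96 on the other 5 arrays. Lox, a collagen cross-linking enzyme, averaged 7.52 in targeted cells and 8.27 in cells not targeted. In limma's test 0 genes of either list passed the adjusted threshold. Leaving out targeted replicate 1 moved the log2 difference of Timp1 to 0.65 (1.01 over all arrays), of Col1a2 to 0.08 (0.47) and of Lox to -1.16 (-0.75). Without targeted replicate 1 the medians were 0.36 for the osteogenic and 0.05 for the fibrosis genes.

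Markers of blood cells, some of which also use Ebf1 or Runx1, were measured on the same arrays. Of 10 B lineage markers, 9 had a value and 6 were tested, 3 with higher and 3 with lower means. Cd79a, a component of the B cell receptor, was at 5.26 to 5.50 in targeted cells and 5.47 to 6.28 in cells not targeted and was left out as dim, and Pax5, the B cell identity factor, was at 6.12 to 6.22 in targeted cells and 6.03 to 6.10 in cells not targeted. Vpreb1, a surrogate light chain gene of B precursors, was at 8.33, 6.22 and 6.98 in targeted cells and at 9.19, 7.81 and 9.16 in non-targeted cells. Targeted replicate 1, the array with the highest Ebf1, was the highest targeted array in Vpreb1, above non-targeted replicate 2 and below the other 2 non-targeted arrays. For no other marker of the 9 was it the highest targeted array. It was the lowest for Igll1, at 6.64 against 6.89 and 6.92, and for Cd79b, at 6.54 against 6.77 and 6.77. The summed linear intensity of the 9 markers was 669 to 849 in targeted cells and 727 to 1234 in cells not targeted. For 10 markers of blood progenitors and leukocytes, 6 of them tested, it was 840 to 1028 in targeted cells and 866 to 1040 in cells not targeted. Ptprc, the pan-leukocyte gene CD45, and Spi1, a myeloid and B cell factor, were dim. The sum of 10 neutrophil and myeloid markers was 976 in targeted replicate 1, up to 11489 on the other targeted arrays, and 8864 to 13872 in non-targeted cells. The part of these cells in the members' values was not tested.

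Markers of other cell types were compared in the same way. Of 8 endothelial markers 4 were tested, and the 8 summed to 533 to 618 in targeted cells and 506 to 632 in cells not targeted. Of 8 erythroid markers 7 had a value and 3 were tested, summing to 428 to 490 in targeted cells and 430 to 466 in cells not targeted. The 6 chondrocyte markers, 3 of them tested, summed to 599 to 686 in targeted cells and 594 to 655 in cells not targeted. The 7 pericyte and smooth muscle markers, all tested, summed to 890 to 981 in targeted cells and 771 to 866 in cells not targeted, and here the groups did not overlap. Linear sums weigh bright genes most, and Abcc9 was the brightest of the 7 in targeted cells. The mean log2 intensity of the 7 did overlap, at 6.73 to 6.93 in targeted cells and 6.59 to 6.84 in cells not targeted. By gene, 1 was higher without overlap (3.32% of all genes tested) and 1 lower without overlap (5.76%). In that list Abcc9, a channel subunit of pericytes, was at 8.17 to 8.48 in targeted cells and 7.57 to 7.72 in cells not targeted (limma, adjusted p = 0.701). Rgs5, a G protein regulator of pericytes, went the other way without overlap, at 7.42, 6.99 and 6.13 in targeted cells and 7.63, 7.81 and 7.57 in cells not targeted (log2 difference -0.83; limma, adjusted p = 0.97). Their part in the members' values was not tested.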

How the data were processed

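The deposited values were array intensities on a linear scale, which per the submitters' processing notes came from RMA, run in Affymetrix Expression Console 1.4. The log2 of each was taken here. The build and annotation behind them are not given in the sources used. Of 35556 probe sets, 21789 named exactly 1 gene in the platform annotation, 1621 named several and 12146 were not named there. Symbols were updated through RefSeq (GRCm38.p6, 21698 matched), and the probe set with the highest mean was kept per gene (19938 genes). Genes in the dimmest 33.3% by mean (log2 intensity up to 6.00) were not tested. The comparison, targeted minus non-targeted, used limma 3.58.1 under R 4.3.3 (lmFit, eBayes, two-sided, Benjamini-Hochberg over 13292 genes, threshold 0.05). The fit was tested on simulated data with independent errors on each array, which cannot show how it fares with shared mice or array-wide differences. The populations may share mice, but replicate numbers were not used in the main fit, since no label ties a number to a mouse. They entered only as replicate blocks among the alternatives. The members, the 14 gene lists (117 symbols, 112 with a value, 89 tested) and the tests were chosen with earlier results of these data known. The genes named were the members, genes of these lists, and for each member the 3 protein-coding genes most correlated with it. The number of arrays limits the precision. Figures were drawn with matplotlib 3.10.9.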

Additional observations from a re-analysis of the deposited data

How the results depend on the processing

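Under 17 alternatives each (filters on dim genes, scaling, variance models, array weights, mean of probe sets, replicate blocks, an array left out), 0 of 102 member values passed limma's adjusted threshold (smallest adjusted p = 0.244), 5 had an unadjusted p under 0.05 and 98 kept their sign. Of those 5, 3 (Foxc1, Ebf1 and Runx1) came from array weights, where 15.5% of all genes had such a p, and 1 each from leaving out targeted replicate 1 (Ebf1, 8.40% of all genes) and non-targeted replicate 1 (Ebf3, 5.97%). The 4 that turned were all of Prrx1, at 0.020 under quantile scaling, 0.0062 under cyclic loess scaling, 0.31 when targeted replicate 2 was left out and 0.04 when non-targeted replicate 2 was. The cause was not tested. Filters on dim genes, variance models, the mean of probe sets and replicate blocks cannot change a member's difference. Signs kept under these alternatives were therefore fixed in advance, and only scaling, array weights and left-out arrays could turn one. With an array left out, log2 differences ran from -0.50 to -0.17 for Foxc1, -0.67 to -0.10 for Ebf1, -0.29 to -0.04 for Ebf2, -0.42 to -0.07 for Ebf3, -0.57 to -0.18 for Runx1 and -0.26 to 0.31 for Prrx1. The number of genes passing over all genes tested was 0 with any array left out, and 1, Dmp1, with array weights (adjusted p = 0.0259). With a fixed replicate block it was also 1, Dmp1 (adjusted p = 0.0153). The block left the members' differences as they were (-0.35 for Foxc1, unadjusted p = 0.215), and with a random block 0 genes passed. Same-numbered arrays deviated from their group means with correlations of -0.26, -0.12 and 0.07. With 3 arrays per group, such values cannot show whether same-numbered arrays share a mouse. The numbers were taken as names only because no label ties a number to a mouse. The median of all genes moved by less than 0.1 under every scaling. The niche genes were all lower in 15 of 17 alternatives and the partners in 14 of 17. These counts include alternatives that repeated the main medians of both lists: no filter, variance models, mean of probe sets and replicate blocks. The stricter filter could only drop genes. All exceptions came with an array left out.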
